A study of Mus musculus with 8 samples.

Results

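H3K27ac, the acetylation of a lysine on histone H3 that marks active promoters and enhancers, was compared between activated and freshly isolated muscle stem cells at 7 genes for adhesion and niche retention: Cdh15, Cdh2, Vcam1, Ncam1, Cxcr4, Sdc3 and Sdc4. The genes were chosen by name, with earlier results of these data known, and they are 7 of 21887 protein-coding genes on assembled mouse chromosomes. The activated cells (ASC) came from skeletal muscle of C57BL/6 mice 2.5 days after injury with BaCl2, a salt that kills myofibres. The freshly isolated cells (FISC) came from C57BL/6 skeletal muscle with no treatment. Each condition had 2 H3K27ac libraries, numbered 1 and 2, and 2 input libraries made without antibody, which were not analysed here. The labels give no age, number of animals or sorting markers. They do not say that replicates were separate animals, so every p-value measures the spread between these libraries, which may be technical.

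Satellite cells are the stem cells of skeletal muscle and lie between the myofibre and the basal lamina. Cadherins on stem cell and fibre hold the cell in place, integrins and syndecans bind the lamina and growth factors, and the chemokine receptor Cxcr4 binds Cxcl12 from nearby cells. After injury the cells leave quiescence, loosen these contacts, migrate, divide and later fuse, and adhesion molecules such as Vcam1 and Ncam1 take part in contacts with immune cells and other myogenic cells.

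Promoter sequences are shown for the 4 members held by the RefSeq promoter table used here (build GRCm38.p6), because the peaks described next begin at or cross these bases. Each line is the 250 bases before the annotated start on the gene's own strand, 5′ to 3′, in lower case. Capitals mark matches on either strand to 3 motifs: the E-box CANNTG bound by bHLH factors such as Myod1, the GC box GGGCGG bound by Sp factors, and the TATA box TATAAA.
Cdh15, chr8:122848124-122848373, plus strand: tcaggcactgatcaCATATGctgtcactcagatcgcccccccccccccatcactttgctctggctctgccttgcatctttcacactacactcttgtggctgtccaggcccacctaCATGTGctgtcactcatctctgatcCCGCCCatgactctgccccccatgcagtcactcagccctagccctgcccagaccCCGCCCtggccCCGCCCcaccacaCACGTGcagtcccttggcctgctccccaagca
Cxcr4, chr1:128592300-128592549, minus strand: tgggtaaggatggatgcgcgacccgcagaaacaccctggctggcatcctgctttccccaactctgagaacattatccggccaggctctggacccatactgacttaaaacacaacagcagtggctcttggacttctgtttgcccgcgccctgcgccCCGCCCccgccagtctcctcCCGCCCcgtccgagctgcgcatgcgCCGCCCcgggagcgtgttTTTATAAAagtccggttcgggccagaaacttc
Sdc3, chr4:130792287-130792536, plus strand: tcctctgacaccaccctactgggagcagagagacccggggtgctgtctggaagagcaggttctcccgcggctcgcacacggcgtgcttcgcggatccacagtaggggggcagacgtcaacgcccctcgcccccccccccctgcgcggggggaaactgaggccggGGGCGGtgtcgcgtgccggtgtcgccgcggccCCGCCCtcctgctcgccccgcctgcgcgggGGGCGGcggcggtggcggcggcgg
Sdc4, chr2:164443189-164443438, minus strand: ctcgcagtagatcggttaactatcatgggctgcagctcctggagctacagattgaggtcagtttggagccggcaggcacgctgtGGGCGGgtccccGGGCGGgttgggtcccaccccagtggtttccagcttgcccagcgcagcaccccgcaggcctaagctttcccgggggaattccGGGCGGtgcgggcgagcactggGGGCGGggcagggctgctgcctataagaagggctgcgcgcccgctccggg

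The Cdh15 promoter held 3 E-boxes, which began 236, 135 and 32 bases before the start, and the other windows printed held 0. E-boxes occurred in 62.8% of 21263 promoters of the same length. GC boxes were found in all 4 windows, 3 each in Cdh15, Cxcr4 and Sdc3 and 4 in Sdc4, and 42.6% of all promoters held at least 1. The Cxcr4 window held the TATA letters on both strands as overlapping matches, 32 and 30 bases before the start, and 11.6% of promoters held this motif. The AP-1 letters TGANTCA (6.13% of promoters) and the Rbpj letters TGGGAA (20.9%) had no match in the 4 windows. GC content was 62.0% in the Cdh15 window, 61.2% in Cxcr4, 76.4% in Sdc3 and 68.0% in Sdc4, against a median of 55.6% over all promoters.

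H3K27ac peaks covered the whole 250-base window of Cxcr4 and of Sdc4 in all 4 libraries. At Sdc3 they covered 250 bases in both ASC libraries, against 149 bases in FISC library 1 and 173 in FISC library 2. At Cdh15 the peaks covered 35 bases in ASC library 1 and 110 in ASC library 2, against 0 in both FISC libraries. At Sdc3 and Cdh15 the values of the conditions did not overlap. At Cdh15 the peak edge lay further upstream in ASC. At Sdc3 a peak began upstream of the window in all 4 libraries. The uncovered FISC bases there were a gap between peaks at the start. Relative to the start, it ran from -0.101 to 0.017 kb in FISC library 1 and from -0.077 to 0.012 kb in FISC library 2. These bases are part of the gene-end windows tested next and were given no test of their own.

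The deposited lists held 50154 and 54700 peaks in ASC libraries 1 and 2, against 45014 and 43092 in FISC libraries 1 and 2. Peaks covered 53.4 ± 6.03 Mb in ASC and 34.0 ± 0.440 Mb in FISC (SD, n = 2 each), a ratio of 1.57 (exact 2-sided permutation p = 0.333, the smallest that 2 libraries against 2 allow). Covered length over the genome was longer in both ASC libraries than in either FISC library, and the differences at the members stand beside the median over all genes. Peak lists hold no read counts, so the depth is unknown and no counting interval is given. In pooled cells, more cells carrying the mark and more of the mark per cell cannot be told apart.

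Covered length was counted in 3 places. The ends are the windows within 2 kb of either end of the annotated gene, the body is the rest of the gene, and the flanks run from 2 to 50 kb outside it. Differences are ASC minus FISC in kb, fitted with limma over all genes covered in at least 2 libraries, with Benjamini-Hochberg adjustment over the whole table and a threshold of 0.05.

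At the ends, 2 of the 7 genes rose (26.5% of 12924 genes did) and 1 fell (3.61%). In the body, 4 of 7 rose (42.8% of 6528 genes) and 0 fell (9.73%). In the flanks, 2 of the 6 genes fitted rose (46.0% of 15985 genes) and 1 fell (5.71%). The shares that rose were thus near or below those of all genes at the ends and in the flanks, and 4 of 7 in the body stood against 42.8%. Libraries of the conditions did not overlap at the ends of 4 members that were higher in ASC (62.1% of genes) and 2 that were lower (11%). In the body this held for 5 higher (64.1%) and 1 lower (16.9%), and in the flanks for 3 higher (68.7%) and 2 lower (11.1%). The median difference of the members fitted was 0.17 kb at the ends, 1.15 kb in the body and 1.24 kb in the flanks, against 0.30, 0.53 and 0.96 kb over all genes fitted.

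**Figure D1:**
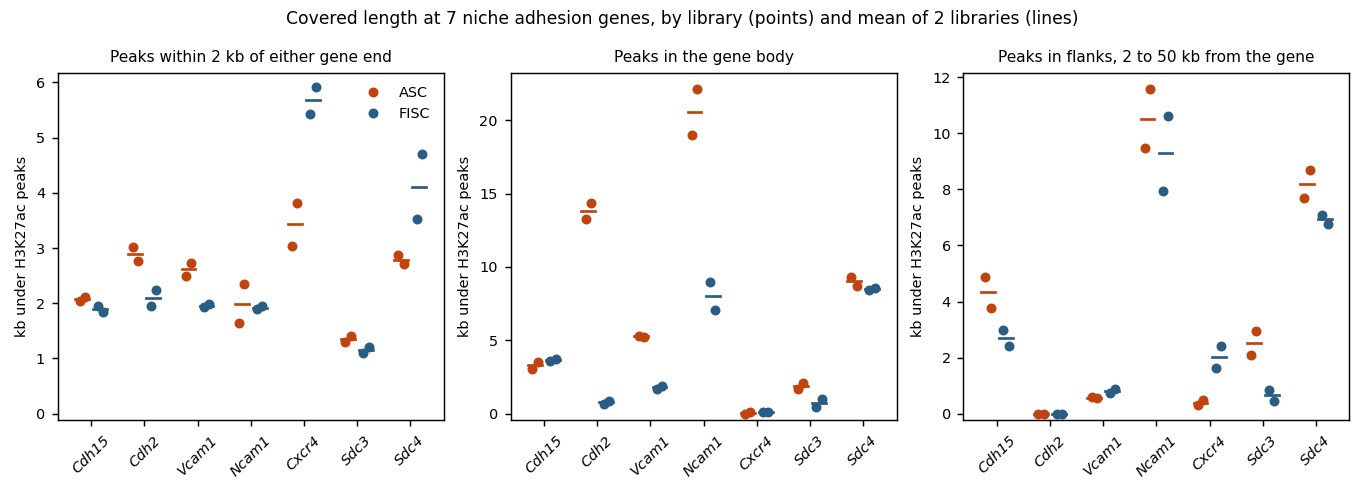
Kb under H3K27ac peaks at each gene (left, ends; middle, body; right, flanks), with a point for each library and a line at the mean of 2 libraries, ASC in orange to the left of FISC in blue. Cxcr4 lies lower in ASC at the ends and in the flanks, and Cdh2, Vcam1 and Ncam1 lie higher in ASC in the body.

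Cdh2 encodes N-cadherin, a calcium-dependent adhesion molecule between satellite cell and myofibre. The gene spans chr18:16588877-16809246. Peaks inside its body covered 13.3 and 14.3 kb in ASC libraries 1 and 2, against 0.684 and 0.870 kb in FISC libraries 1 and 2. Both ASC libraries stood far above both FISC libraries, and the body rose by 13.04 ± 0.611 kb (SE, adjusted p = 0.00478, limma). Of the 6528 genes fitted, 112 had a difference at least as large, Cdh2 included. Peaks took 6.14% and 6.63% of the body in the ASC libraries, against 0.316% and 0.402% in the FISC libraries.

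The ASC body peaks of Cdh2 lay mostly in 3 stretches of the gene, at 113.6 to 125.6 kb, 149.8 to 159.7 kb and 190.4 to 193.2 kb from its lower-coordinate end. The rest was the inner edge of the peak at the higher-coordinate end, which began 217.9 and 217.6 kb along the gene in ASC libraries 1 and 2. A region at 114.0 to 116.6 kb held 2.47 and 2.56 kb of peak in ASC libraries 1 and 2 and none in either FISC library. The region at 154.9 to 157.7 kb held 2.33 and 2.71 kb in ASC and none in FISC. The region at 149.8 to 153.4 kb was covered in all 4 libraries, with 3.05 and 3.52 kb in ASC, against 0.684 and 0.870 kb in FISC, which was all of the FISC peak length in the Cdh2 body. Of the 13 Cdh2 regions, 7 were present in both ASC libraries and in neither FISC library (19.9% of all regions were).

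At its higher-coordinate end, Cdh2 had 3.02 and 2.76 kb in ASC libraries 1 and 2, against 1.96 and 2.00 kb in FISC libraries 1 and 2. The conditions did not overlap, and this end rose by 0.92 ± 0.136 kb (SE, adjusted p = 0.0134, limma, where 26.4% of 7788 genes rose). The lower-coordinate end held 0.239 kb in FISC library 2 and no peak elsewhere. Both ends together rose by 0.80 kb (adjusted p = 0.0319), but the difference was -0.30 kb once each library was divided by its total covered length. The call at both ends was lost without ASC library 1 (adjusted p = 0.0614), without FISC library 1 (0.155) and without FISC library 2 (0.0943). No library had a peak 2 to 50 kb outside Cdh2.

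Cdh15 encodes M-cadherin, a cadherin widely used as a marker of satellite cells. The gene lies at chr8:122848374-122867397 on the plus strand. Its ends held 2.04 and 2.11 kb in ASC libraries 1 and 2, against 1.96 and 1.85 kb in FISC libraries 1 and 2. The ASC values were just above the FISC values, and the difference of 0.17 kb (95% interval -0.17 to 0.51) did not pass (adjusted p = 0.3505, limma). Its body held 3.03 and 3.54 kb in ASC, against 3.58 and 3.74 kb in FISC, a difference of -0.37 kb (interval -1.28 to 0.54, adjusted p = 0.377). Divided by total covered length, the ends (-0.74 kb, adjusted p = 0.0168) and the body (-2.01 kb, adjusted p = 0.00570) both passed as lower in ASC. Peaks took 20.2% and 23.6% of the Cdh15 body in the ASC libraries, against 23.9% and 24.9% in the FISC libraries, so a broad acetylated stretch after the start was present in both conditions.

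The Cdh15 flanks held 4.886 and 3.762 kb in ASC libraries 1 and 2, against 3.003 and 2.405 kb in FISC libraries 1 and 2, and they rose by 1.62 ± 0.506 kb (SE, adjusted p = 0.0381, limma). The added length lay mostly at 55.0 to 59.3 kb from the Cdh15 start, inside Ankrd11, a neighbouring gene that begins 15.9 kb beyond the last end of Cdh15. On that side alone the flank rose by 1.52 ± 0.450 kb (adjusted p = 0.0467, where 39.0% of 12799 genes rose). The call over both Cdh15 flanks passed in 12 of 20 alternatives. The difference ran from -0.34 to 7.04 kb over these alternatives, and 2 reversed it. With only the flank bases nearest to Cdh15 counted, the difference was -0.34 kb (adjusted p = 0.0530), and without FISC library 2 the call was lost (adjusted p = 0.202).

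**Figure D2:**
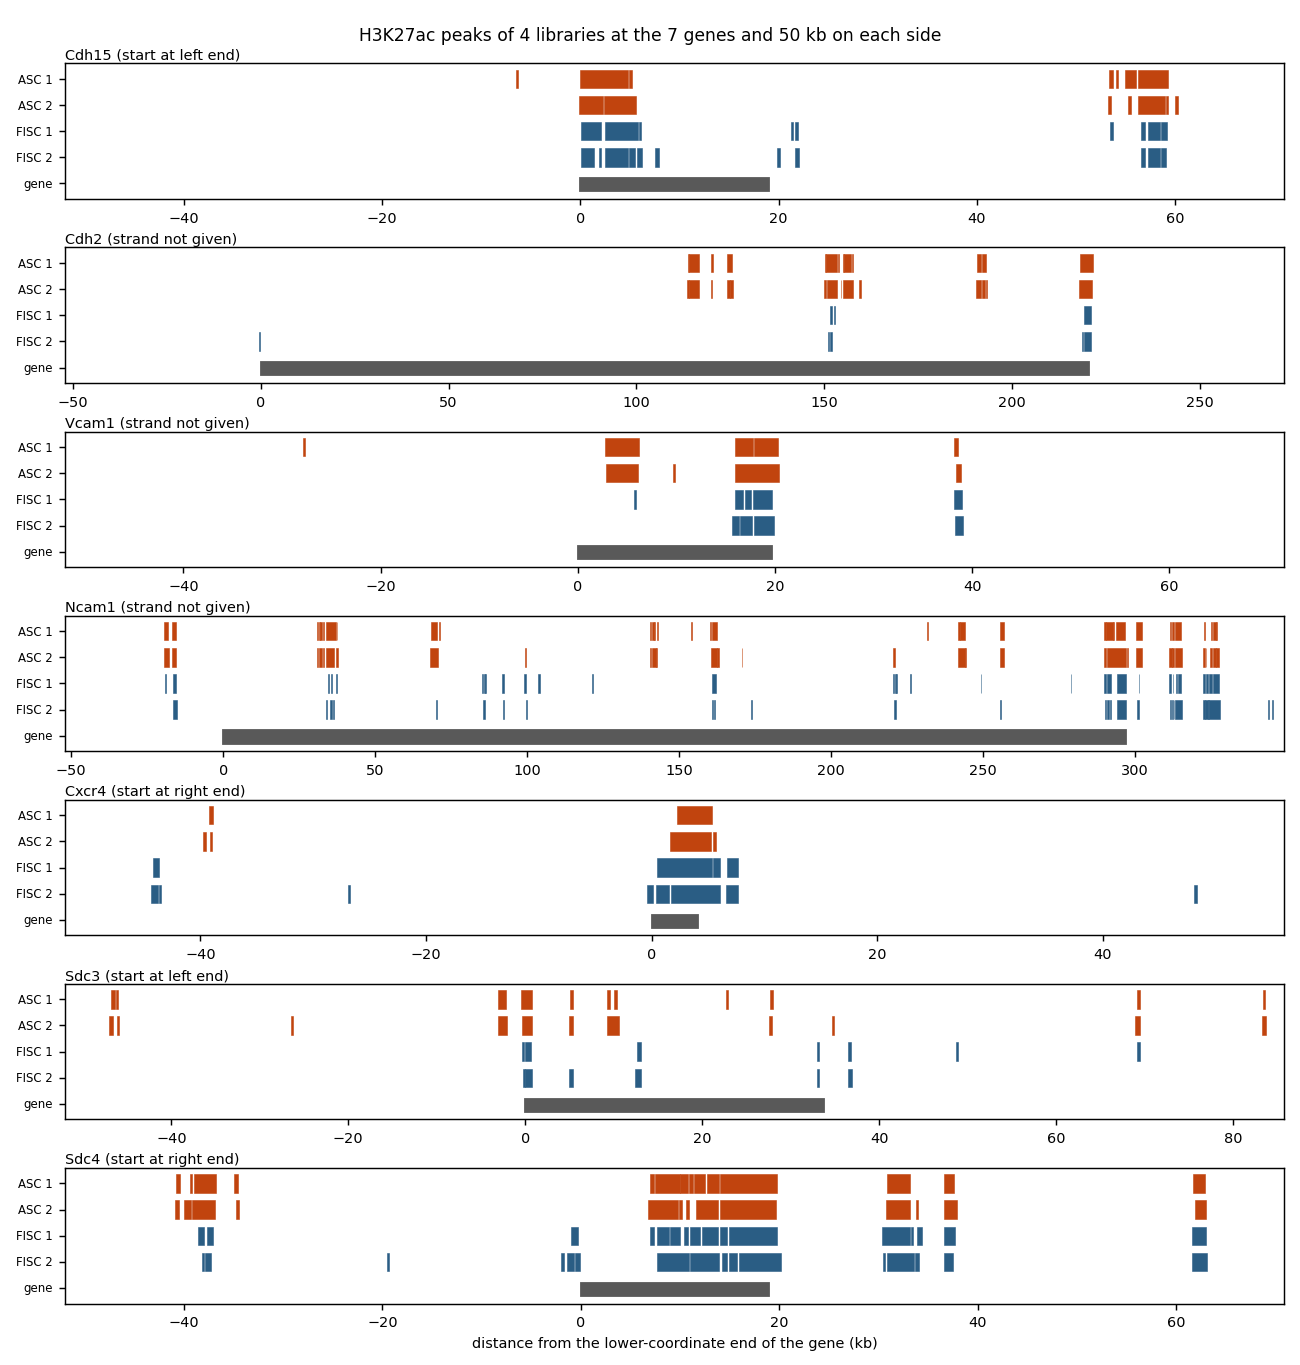
H3K27ac peaks (blocks) of each library at the 7 genes, with the gene as a grey bar and distance in kb from its lower-coordinate end, ASC rows above FISC rows. The body of Cdh2 and the left part of Vcam1 hold long peaks in the ASC rows and short or no peaks in the FISC rows, and the block over Cxcr4 is wider in the FISC rows.

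Vcam1 encodes an immunoglobulin-family ligand of the integrin Itga4-Itgb1 and is a surface marker of mouse satellite cells. The gene spans chr3:116110020-116129688. Its body held 5.29 and 5.23 kb of peak in ASC libraries 1 and 2, against 1.69 and 1.92 kb in FISC libraries 1 and 2. Both ASC libraries were above both FISC libraries, and the body rose by 3.46 ± 0.270 kb (SE, adjusted p = 0.00487, limma). Peaks took 33.8% and 33.4% of the Vcam1 body in the ASC libraries, against 10.8% and 12.3% in the FISC libraries.

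A region at chr3:116112733-116116261, which lies 2.7 to 6.2 kb inside the lower-coordinate end of Vcam1, held most of that added length. It had 3.53 and 3.32 kb of peak in ASC libraries 1 and 2, against 0.225 kb in FISC library 1 and none in FISC library 2. In both ASC lists it was the peak of highest fold enrichment within 50 kb of Vcam1, and 5.93% of peaks in ASC list 1 and 8.06% in ASC list 2 had a higher fold. Fold enrichment is the authors' own value for each peak and was used only to rank peaks within a list.

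The higher-coordinate end of Vcam1 held 2.50 and 2.73 kb in ASC libraries 1 and 2, against 1.93 and 1.99 kb in FISC libraries 1 and 2, and the lower-coordinate end held no peak. The ends rose by 0.65 ± 0.151 kb (SE, adjusted p = 0.0329, limma), but the difference was -0.37 kb once divided by total covered length. The call was lost without ASC library 2 (adjusted p = 0.0904), without FISC library 1 (0.155) and without FISC library 2 (0.139). The flanks held 0.582 and 0.564 kb in ASC, against 0.720 and 0.879 kb in FISC. Here the ASC libraries were lower without overlap, and the difference of -0.23 kb (interval -0.56 to 0.10) did not pass (adjusted p = 0.204). With only peaks of −log10 q of at least 5, it was -0.80 kb and passed (adjusted p = 0.00508).

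Ncam1 encodes a homophilic adhesion molecule of the immunoglobulin family, present on myoblasts and used as a marker of satellite cells in human muscle. It is the longest member, at chr9:49502129-49799393. Its body held 19.0 and 22.1 kb of peak in ASC libraries 1 and 2, against 9.004 and 7.094 kb in FISC libraries 1 and 2. The conditions did not overlap, and the body rose by 12.5 ± 1.78 kb (SE, adjusted p = 0.0106, limma). The call was lost without FISC library 1 (adjusted p = 0.0989) and without FISC library 2 (adjusted p = 0.152). The difference was 5.09 kb in lists cut to equal covered length (adjusted p = 0.0188) and 6.51 kb divided by total covered length (adjusted p = 0.0103).

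The added length at Ncam1 was spread over the gene. A region 33.7 to 37.7 kb from the lower-coordinate end held 3.60 and 3.34 kb in ASC libraries 1 and 2, against 0.830 and 1.41 kb in FISC libraries 1 and 2. Another at 68.0 to 70.7 kb held 2.04 and 2.66 kb in ASC libraries 1 and 2, against none in FISC library 1 and 0.360 kb in FISC library 2. A further region at 241.8 to 244.2 kb held 2.25 and 2.29 kb in ASC and none in FISC. Of the 46 regions at Ncam1, 7 were in both ASC libraries and no FISC library (19.9% of all regions were). Another 2 were in both FISC libraries and no ASC library (7.30% of all regions), and 11 were in all 4 (26.9%). In 1 ASC library alone there were 8 (20.9% of all regions), and in 1 FISC library alone 12 (16.2%).

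At the higher-coordinate end of Ncam1, peaks covered 1.64 and 2.34 kb in ASC libraries 1 and 2, against 1.89 and 1.95 kb in FISC libraries 1 and 2. The libraries overlapped, and the difference was 0.077 kb (interval -0.59 to 0.74, adjusted p = 0.836, limma). In each of the 4 lists this end held the Ncam1 peak of highest fold enrichment. The flanks held 9.48 and 11.6 kb in ASC, against 7.96 and 10.6 kb in FISC, with overlap and a difference of 1.23 kb (interval -1.94 to 4.39, adjusted p = 0.453). On the lower-coordinate side alone the flank rose by 1.67 ± 0.195 kb (SE, adjusted p = 0.00368, where 38.2% of 12714 genes rose). This length lay on Ttc12, a neighbouring gene that ends 15.9 kb away. A region 17.9 to 19.4 kb from Ncam1 was inside Ttc12, and another, 15.2 to 16.9 kb away, crossed its end.

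Cxcr4 encodes the receptor for the chemokine Cxcl12 and is another surface marker of mouse satellite cells. It is the shortest member, at chr1:128588199-128592299 on the minus strand, and the end windows cover all but 0.101 kb of it. Within 2 kb of its ends, peaks covered 3.04 and 3.82 kb in ASC libraries 1 and 2, against 5.43 and 5.92 kb in FISC libraries 1 and 2. Both ASC libraries lay below both FISC libraries, and covered length fell by 2.24 ± 0.347 kb (SE, 95% interval -3.14 to -1.35, adjusted p = 0.0123, limma). Of 12924 genes fitted, 21 had a difference at or below that of Cxcr4, itself included. The call was lost without FISC library 1 (adjusted p = 0.0513), without FISC library 2 (adjusted p = 0.0726) and with end windows of 1 kb (-0.81 kb, adjusted p = 0.0949), and the difference was negative in each of these.

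The last end of Cxcr4 held none and 0.381 kb in ASC libraries 1 and 2, against 1.53 and 1.95 kb in FISC libraries 1 and 2. It was lower in both ASC libraries, and it fell by 1.55 ± 0.211 kb (SE, adjusted p = 0.0107, limma, where 4.11% of 7851 genes fell). The start held 3.04 and 3.44 kb in ASC, against 3.90 and 3.97 kb in FISC, a difference of -0.69 ± 0.156 kb (adjusted p = 0.0342, where 4.25% of 7788 genes fell). The strongest peak over the gene was 3.04 and 3.60 kb wide in ASC lists 1 and 2, against 4.91 and 4.40 kb in FISC lists 1 and 2. The Cxcr4 promoter printed above lay under that peak in every library, and the peak was shorter in both ASC lists.

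The Cxcr4 flanks held 0.310 and 0.473 kb in ASC libraries 1 and 2, against 1.63 and 2.41 kb in FISC libraries 1 and 2. The conditions did not overlap, and the flanks fell by 1.63 ± 0.281 kb (SE, adjusted p = 0.00481, limma). A region at chr1:128594782-128595857, which lies 2.5 to 3.6 kb upstream of the start, held no peak in either ASC library, against 1.02 and 1.06 kb in FISC libraries 1 and 2. On the start side alone, the flank fell by 1.20 ± 0.149 kb (SE, adjusted p = 0.00426, where 6.5% of 12799 genes fell). A region 43.5 to 44.4 kb beyond the last end of the gene held none in ASC, against 0.609 and 0.824 kb in FISC. With end windows of 5 kb, which take in the upstream region, the flank difference was -0.59 kb (adjusted p = 0.0995), and with flanks to 100 kb it was -0.55 kb (adjusted p = 0.402).

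**Figure D3:**
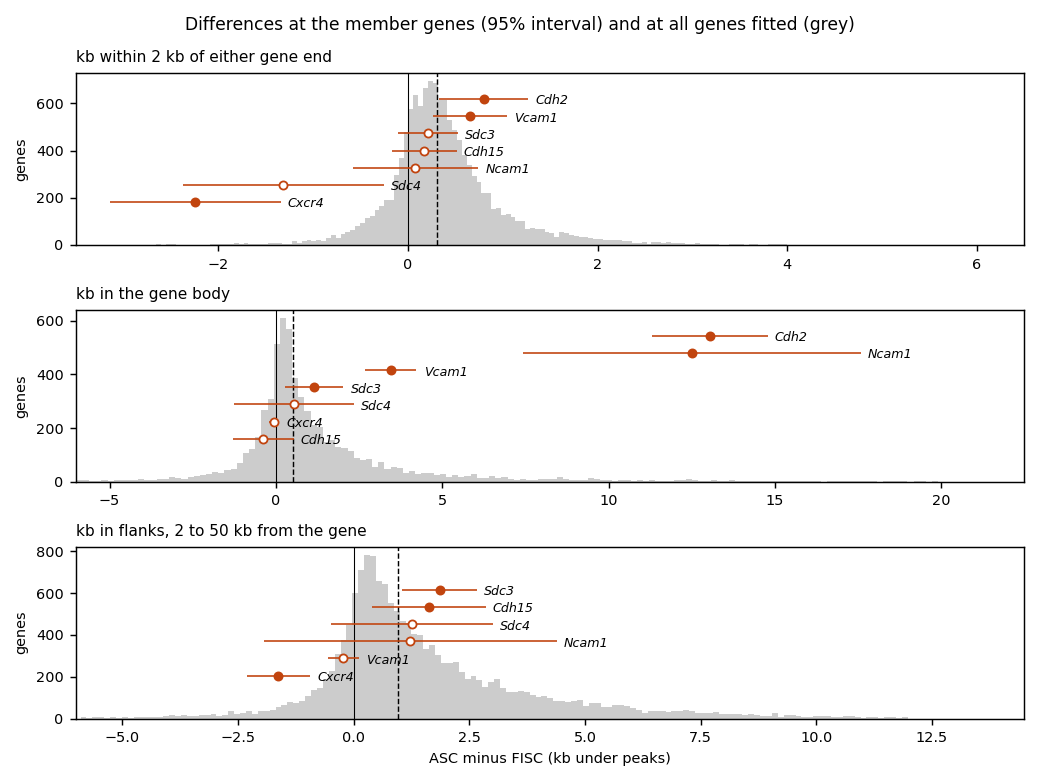
Difference in kb under peaks, ASC minus FISC, for each member fitted (points with 95% intervals, filled where the limma adjusted p is under 0.05, spread vertically for legibility) over the histogram of all genes fitted (grey, vertical axis in genes; dashed line, their median). Cxcr4 lies left of 0 at the ends and in the flanks, and Cdh2 and Ncam1 lie in the far right tail in the body.

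Sdc4 encodes syndecan-4, a heparan sulfate proteoglycan that acts as a co-receptor for growth factors and fibronectin on satellite cells. The gene lies at chr2:164424247-164443188 on the minus strand. Its body held 9.34 and 8.69 kb of peak in ASC libraries 1 and 2, against 8.40 and 8.54 kb in FISC libraries 1 and 2. Peaks took 62.5% and 58.2% of it in the ASC libraries, against 56.2% and 57.1% in the FISC libraries, the largest share among the members with a body of more than 1 kb. The difference of 0.55 kb (95% interval -1.25 to 2.34) did not pass (adjusted p = 0.508, limma).

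The ends of Sdc4 held 2.87 and 2.72 kb in ASC libraries 1 and 2, against 3.52 and 4.70 kb in FISC libraries 1 and 2, a difference of -1.32 ± 0.410 kb that did not pass (SE, adjusted p = 0.0668, limma). Without FISC library 1 it was -1.91 kb and passed (adjusted p = 0.0384), and without FISC library 2 it was -0.73 kb (adjusted p = 0.132). It also passed divided by total covered length (-2.98 kb, adjusted p = 0.00795), with 1 kb windows (-0.86 kb, adjusted p = 0.0358) and among genes with a mean of at least 0.5 kb (adjusted p = 0.0495). At the start, ASC had 2.87 and 2.72 kb, against 2.79 and 3.20 kb in FISC, and the values overlapped (difference -0.20 kb, adjusted p = 0.395). At the last end, neither ASC library had a peak, against 0.725 and 1.502 kb in FISC libraries 1 and 2. That end fell by 1.11 ± 0.268 kb (SE, adjusted p = 0.0403). So the Sdc4 start carried the mark in both conditions and the peaks at the last end were present in FISC libraries only.

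The Sdc4 flanks held 7.70 and 8.69 kb in ASC, against 7.09 and 6.77 kb in FISC, and the difference of 1.26 kb did not pass (adjusted p = 0.183, limma). Without ASC library 1 it was 1.76 kb and passed (adjusted p = 0.0287), and it was -2.18 kb once divided by total covered length (adjusted p = 0.00743). Beyond the last end, on the lower-coordinate side, they held 3.14 and 3.61 kb in ASC libraries 1 and 2, against 1.17 and 0.992 kb in FISC libraries 1 and 2. That side rose by 2.29 ± 0.263 kb (SE, adjusted p = 0.00355). The added length lay mostly 36.8 to 40.0 kb from Sdc4, beyond the neighbouring gene Matn4. On the start side the flanks held 4.55 and 5.08 kb in ASC, against 5.92 and 5.78 kb in FISC, a difference of -1.03 kb (adjusted p = 0.116).

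Sdc3 encodes syndecan-3, another heparan sulfate proteoglycan of satellite cells. It lies at chr4:130792537-130826318 on the plus strand. Its ends held 1.30 and 1.41 kb in ASC libraries 1 and 2, against 1.10 and 1.20 kb in FISC libraries 1 and 2, the shortest covered length of the 7 genes in each library. ASC was higher without overlap, and the difference of 0.21 kb (95% interval -0.10 to 0.53) did not pass (adjusted p = 0.234, limma). The body held 1.68 and 2.10 kb in ASC, against 0.443 and 1.02 kb in FISC. It rose by 1.15 ± 0.307 kb (SE, adjusted p = 0.0438), but the difference was -0.73 kb in lists cut to equal covered length, and the call was lost without any 1 of the 4 libraries (adjusted p from 0.0541 to 0.189).

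The Sdc3 flanks held 2.10 and 2.94 kb in ASC libraries 1 and 2, against 0.857 and 0.467 kb in FISC libraries 1 and 2. They rose by 1.86 ± 0.329 kb (SE, adjusted p = 0.00534, limma), though the difference was -0.41 kb in lists cut to equal covered length. A region 2.1 to 3.1 kb upstream of the start held 0.920 and 1.01 kb in ASC and none in FISC. A peak inside the gene, 12.37 to 13.03 kb after the start, showed the opposite pattern, with none in ASC, against 0.443 and 0.654 kb in FISC. With only the flank bases nearest to Sdc3 counted, the difference was 0.78 kb (adjusted p = 0.0592).

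Peaks of the 4 lists that overlapped by at least 1 base were merged into regions, and 111 regions lay within 50 kb of the 7 genes. Of these, 24 were present in both ASC libraries and no FISC library, which is 21.6% of the members' regions and 19.9% of all 72585 regions. Another 9 were in both FISC libraries and no ASC library (8.11%, against 7.30% of all regions), and 25 were in all 4 (22.5%, against 26.9%). The shares were near those of all regions. Cdh2 and Ncam1 held 7 each of the 24 and Sdc3 held 6. Vcam1 held 0 of them, since its main body region touched a short peak in FISC library 1.

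By Euclidean distance over 12 values for each gene (ends, body and flanks in 4 libraries), the genes most like Cxcr4 were Gstm1 (distance 2.49 kb) and Hey1 (2.63 kb). Hey1, a Notch target, had 3.03 kb at its ends in ASC and 4.10 kb in FISC on average, and 0.643 kb in ASC and 2.51 kb in FISC in its flanks. For Cdh2 a near gene was Usp6nl (1.99 kb), for Vcam1 the nearest were Anp32a (1.32 kb) and Slc30a7 (1.60 kb), and for Ncam1 Col4a2 (7.21 kb) and Timp2 (7.42 kb). For Cdh15 they were Kmt2d (2.29 kb) and Plat (2.455 kb), for Sdc3 a near gene was Mga (1.27 kb), and for Sdc4 they were Mxra7 (4.57 kb) and Loxl1 (4.81 kb). The larger distances for Ncam1 and Sdc4 go with their longer covered lengths.

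Genes that act with the members were read at their ends in 6 lists, where 26.5% of all genes rose and 3.61% fell. Among 10 cadherins and catenins, 7 were fitted, of which 1 rose and 1 fell, with a median difference of 0.097 kb against 0.30 kb over all genes. Ctnna1, the catenin that links cadherins to actin, had 2.28 kb in ASC and 1.56 kb in FISC (means, n = 2 each) and rose by 0.73 kb (adjusted p = 0.0156, limma), but stood at -0.12 kb once divided by total covered length. Cdh11, another cadherin, had no peak in ASC and 0.341 kb in FISC and fell by 0.34 kb (adjusted p = 0.0498). It stood at -0.24 kb in lists of equal peak number (adjusted p = 0.0598) and at -0.44 kb divided by total covered length (adjusted p = 0.0209). Ctnnb1, beta-catenin, had 2.32 kb in ASC and 2.22 kb in FISC (adjusted p = 0.707).

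Among 16 other immunoglobulin-family genes, 11 were fitted, of which 3 rose and 1 fell (median 0.31 kb). Pvr, a nectin-like receptor, had 2.82 kb in ASC and 1.85 kb in FISC and rose by 0.96 kb (adjusted p = 0.0118, limma), but stood at -0.065 kb once divided by total covered length. Alcam had 0.851 kb in ASC and no peak in FISC (adjusted p = 0.00450), and Icam1 had 0.493 kb in ASC and 0.100 kb in FISC (adjusted p = 0.0462). Divided by total covered length, Alcam stood at 0.70 kb (adjusted p = 0.00472) and Icam1 at 0.28 kb (adjusted p = 0.0905). Neither was fitted in lists cut to equal covered length, and Icam1 was not fitted in lists of equal peak number. Bcam, a laminin receptor, had 0.598 kb in ASC and 1.34 kb in FISC and fell by 0.74 kb (adjusted p = 0.0372).

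Of 10 partners of Vcam1 and Ncam1, 7 were fitted, 4 rose and 0 fell (median 0.60 kb). Fgfr4, a fibroblast growth factor receptor of myogenic cells, had 5.89 kb in ASC and 3.76 kb in FISC and rose by 2.13 kb (adjusted p = 0.0163, limma), but stood at -0.0028 kb once divided by total covered length. St8sia2, which adds polysialic acid to Ncam1, rose by 0.88 kb (adjusted p = 0.0318), the protease Adam10 by 0.74 kb (adjusted p = 0.0259), and Itgb7, an integrin partner of Itga4, by 0.60 kb (adjusted p = 0.00830). Divided by total covered length, St8sia2 stood at 0.085 kb (adjusted p = 0.751) and Adam10 at 0.067 kb (adjusted p = 0.777). Itgb1 had 2.91 kb in ASC and 2.54 kb in FISC (adjusted p = 0.412), and Itga4 had no peak at its ends in any library.

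In the Cxcr4 axis, 6 of 8 genes were fitted, 3 rose and 0 fell (median 0.72 kb). Cxcl12, the ligand of Cxcr4, had 2.20 and 2.26 kb in ASC libraries 1 and 2, against 0.947 and 0.978 kb in FISC libraries 1 and 2, and rose by 1.27 ± 0.120 kb (SE, adjusted p = 0.00427, limma). Ackr3, the other receptor of Cxcl12, had 3.52 kb in ASC and 2.22 kb in FISC and rose by 1.30 kb (adjusted p = 0.00823). Ackr3 stood at 0.46 kb in lists cut to equal covered length (adjusted p = 0.396) and at 0.045 kb divided by total covered length (adjusted p = 0.885), and its call was lost without FISC library 1 (0.0609) and without FISC library 2 (0.0515). Mif, a further ligand of Cxcr4, rose by 0.60 kb (adjusted p = 0.0403), but stood at -0.033 kb once divided by total covered length.

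Among 10 other syndecans, glypicans and their partners, 9 were fitted, 2 rose and 0 fell (median 0.41 kb). Gpc4, a glypican, rose by 0.80 kb (adjusted p = 0.0302, limma). It stood at 0.52 kb in lists cut to equal covered length (adjusted p = 0.0855) and at 0.14 kb divided by total covered length (adjusted p = 0.536). Fzd7, a Wnt receptor that forms a complex with Sdc4, rose by 0.71 kb (adjusted p = 0.0278). Once divided by total covered length, Fzd7 stood at -0.63 kb and passed as lower in ASC (adjusted p = 0.0499). Of 13 genes for heparan sulfate synthesis and editing, all were fitted, 3 rose and 0 fell (median 0.22 kb). These were the sulfotransferases Hs2st1 (1.12 kb, adjusted p = 0.00974) and Hs6st1 (0.73 kb, adjusted p = 0.0197) and the epimerase Glce (0.71 kb, adjusted p = 0.0381), and once divided by total covered length they stood at -0.22, -0.093 and -0.41 kb. Of the 18 calls over the 6 lists, 1 remained without FISC library 1, 1 without FISC library 2, 12 without ASC library 1 and 7 without ASC library 2. In lists of equal peak number 16 remained, at equal covered length 9, and divided by total covered length 5, where 10 of the 18 differences lay below 0. Genes no longer fitted count here as not remaining. Those fitted were 17 without either FISC library, 16 without either ASC library, 17 at equal peak number and 15 at equal covered length.

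In their bodies, where 42.8% of all genes rose and 9.73% fell, 5 of 8 fitted cadherins and catenins rose and 1 fell. Of the immunoglobulin-family genes, 2 of 6 rose and 1 fell, and of the partners of Vcam1 and Ncam1, 4 of 8 rose and 1 fell. In the Cxcr4 axis 2 of 3 rose and 1 fell. Of the other syndecans, glypicans and partners 4 of 6 rose and 0 fell, and of the heparan sulfate genes 7 of 11 rose and 1 fell. In their flanks, where 46.0% of all genes rose and 5.71% fell, the counts were 5 of 7 that rose for cadherins and catenins, 9 of 14 for the immunoglobulin family, 4 of 8 for the partners, 5 of 7 for the Cxcr4 axis, 3 of 8 for syndecans and glypicans and 5 of 10 for heparan sulfate genes. The flank counts that fell were 0, 1, 1, 0, 0 and 2 in the same order.

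**Figure D4:**
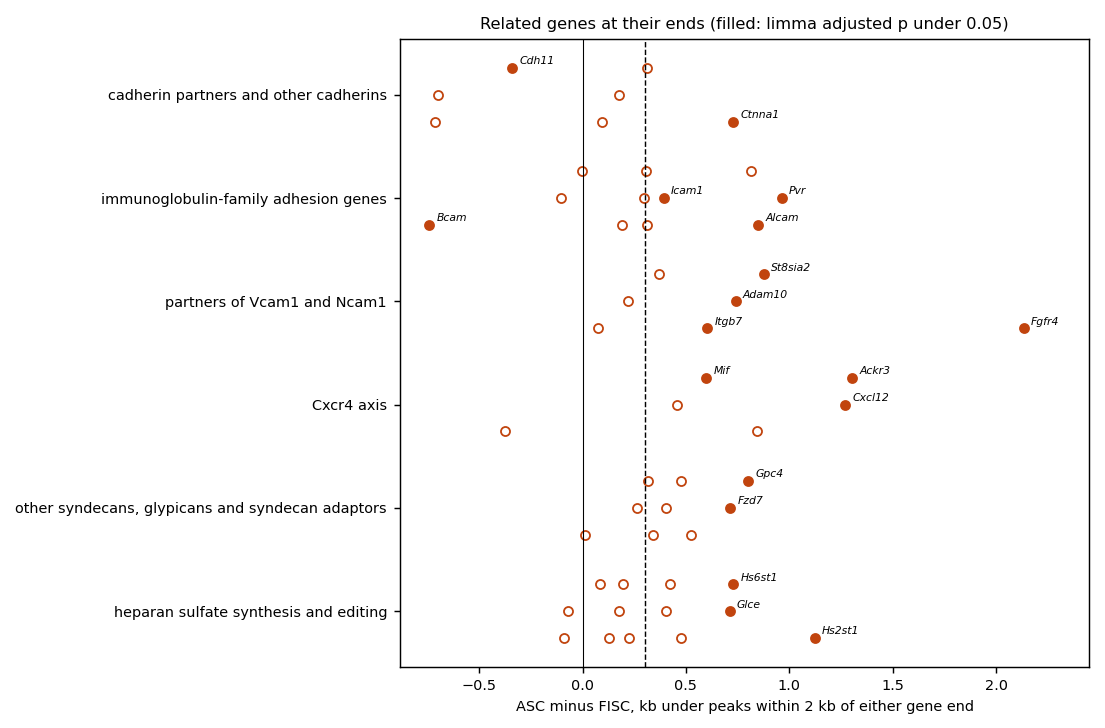
Difference in kb under peaks within 2 kb of either gene end, ASC minus FISC, for each fitted gene of the 6 lists (rows; points within a row are spread vertically for legibility), filled and named where the limma adjusted p is under 0.05. The dashed line is the median over all genes, 0.30 kb, and Fgfr4, Ackr3 and Cxcl12 lie farthest to the right.

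Markers of the labelled cell type were present. Of 10 satellite cell markers, 9 had a peak at their ends in each ASC library and 10 in each FISC library, with summed lengths of 32.7 and 35.9 kb in ASC, against 31.1 and 30.1 kb in FISC. At the ends, all 10 of these markers were fitted, of which 3 rose and 2 fell (26.5% and 3.61% of all genes did). Itga7, a laminin-binding integrin, rose by 2.33 kb (adjusted p = 0.00227, limma), Fgfr4 by 2.13 kb and the zinc finger gene Peg3 by 1.58 kb (adjusted p = 0.0150), and divided by total covered length only Itga7 of these 3 passed (1.15 kb, adjusted p = 0.0133). Calcr, a receptor of quiescent satellite cells, had no peak in ASC, against 1.31 and 0.947 kb in FISC libraries 1 and 2, and fell (adjusted p = 0.00824). Chodl, a membrane lectin, had 1.07 and 1.25 kb in ASC libraries 1 and 2, against 1.83 and 1.99 kb in FISC libraries 1 and 2, and fell by 0.75 kb (adjusted p = 0.0201). In the body the satellite cell sums went the other way, 36.2 and 51.4 kb in ASC, against 59.0 and 58.9 kb in FISC. There 9 were fitted, of which 0 rose and 2 fell (42.8% and 9.73% of all genes did). In the flanks 3 of 8 fitted rose and 0 fell (46.0% and 5.71% of all genes did). Several members are also expressed by other cells of muscle, so markers of those cells were read too. Here and in the next paragraph, values at 0, sums and calls are for the gene ends unless the body is named. Of 10 endothelial markers, 6 (Pecam1, Cdh5, Emcn, Tie1, Erg and Esam) had no peak at their ends in any library. The sum at the ends was 1.22 to 1.79 kb in ASC, against 2.37 to 2.56 kb in FISC. In the body 6 were fitted, of which 1 rose and 1 fell (42.8% and 9.73% of all genes did). Cdh5 rose there, with 3.39 and 3.91 kb in ASC libraries 1 and 2 and none in FISC (adjusted p = 0.00478, limma), and Esam fell. The Pecam1 body held 3.49 to 4.85 kb over the 4 libraries. Of 10 myeloid markers, Ptprc, Itgam, Adgre1, Lyz2 and Tyrobp were at 0, and the sum was 5.63 to 8.21 kb in ASC, against 3.40 to 3.51 kb in FISC.

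Of 10 fibroblast and fibro-adipogenic markers, Pdgfra, Dcn, Col1a1, Lum and Mfap5 were at 0, and the sum was 9.17 to 11.1 kb in ASC, against 6.78 to 7.25 kb in FISC. At their ends 5 were fitted, of which 2 rose and 1 fell, where 26.5% of all genes rose and 3.61% fell. Ly6a, the surface antigen Sca-1, had 1.44 and 2.42 kb in ASC libraries 1 and 2, against none in FISC (adjusted p = 0.0156, limma). Gsn, gelsolin, had 3.92 kb in ASC and 2.15 kb in FISC (adjusted p = 0.00495), and Dpt, dermatopontin, had 1.01 kb in ASC and 2.32 kb in FISC (adjusted p = 0.0123). In the other lists the same shares of all genes apply. Of 4 myeloid markers fitted, 1 rose (Cd14, 0.82 kb). Of 5 smooth muscle and pericyte markers fitted, 1 rose (Notch3, 2.06 kb) and 3 fell (Tagln, Pdgfrb and Cspg4). Of 3 Schwann and neural markers fitted, 2 rose (Erbb3, 1.16 kb, and Ngfr, 1.17 kb). At the ends 0 of 2 endothelial and 0 of 1 lymphoid markers fitted passed. Lymphoid markers summed to 1.12 to 1.53 kb in ASC, against 1.16 to 1.33 kb in FISC, and Cd3g, Lck, Ms4a1 and Nkg7 were among the markers at 0. Smooth muscle and pericyte markers summed to 6.79 to 8.42 kb in ASC, against 8.41 to 8.81 kb in FISC, with Rgs5 and Kcnj8 at 0 among 8. Schwann and neural markers summed to 7.43 to 7.51 kb in ASC, against 4.503 to 4.690 kb in FISC, and Sox10, Foxd3 and Cdh19 were among the markers at 0. The part of the cells behind these sums in the differences at the 7 genes was not tested.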

How the data were processed

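Chromatin bound by the H3K27ac antibody was tagmented and sequenced (ChIPmentation), per the labels' protocols. The submitters' processing notes name bcl2fastq 2.19, BWA, Picard, MACS2 and the build mm10. No source used here gives their settings or says how the inputs were used. The authors deposited 1 peak list for each H3K27ac library, with positions, a score, fold enrichment and −log10 p- and q-values for each peak. Only positions entered the comparisons. Fold and −log10 q served to rank and filter peaks.

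Overlapping peaks of a list were merged and kb under peaks counted around RefSeq genes (GRCm38.p6). Differences were fitted on the linear kb scale with limma 3.58.1 (R 4.3.3, eBayes with trend, no covariates) and adjusted by Benjamini-Hochberg over all genes. The fit was also run on data simulated from the means and spread of the FISC libraries. That run does not cover the larger spread of total covered length between the ASC libraries. Text names all members, for each the 2 most similar genes, and in each list up to 4 genes with the largest called difference at their ends, plus Cxcl12, Itga4, Itgb1 and Ctnnb1; a few genes that this rule or the marker lists would name are not reported here. Members and lists were chosen with earlier results of these data known. RefSeq gave a promoter for 4 of the 7 genes. Alternatives changed peak filters, windows, scaling, gene filters, blocks and libraries.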

Additional observations from a re-analysis of the deposited data

How the results depend on the processing

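Values are kb, ASC minus FISC, or counts of the 7 genes. The body of Cdh2 and of Vcam1 rose in all 17 alternatives, and the Cxcr4 ends were lower in all 18 alternatives and passed in 15. At the ends, the count of members that rose (2) was 1 at equal covered length, 0 when divided by total covered length, with peaks within 500 bases joined, with 1 kb windows and with the annotated start alone, and 4 with 5 kb windows. The count that fell (1) was 4 when divided by total and 2 with a mean of at least 0.5 kb. In the body, the count that rose (4) was 3 with −log10 q or fold of at least 5, at equal peak number, at equal covered length, divided by total, with 1 kb windows, covered in at least 1 library and without trend, and the Sdc3 body passed in 5 of 17 alternatives. The count that fell (0) was 1 at equal covered length and 2 when divided by total. In the flanks, the count that rose (2) was 1 at equal peak number, divided by total, with peaks joined and without trend, 0 at equal covered length and with nearest bases only, and 5 with flanks to 100 kb. The count that fell (1) was 2 with −log10 q or fold of at least 5 and at equal peak number, 4 at equal covered length, 3 divided by total, and 0 with 5 kb windows or flanks to 100 kb. Leaving out 1 library gave 0 to 1 at the ends for genes that rose and 0 to 1 for those that fell, 2 to 3 in the body that rose, and 1 to 3 in the flanks that rose.

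Dividing by total covered length reversed the ends of Cdh15 (-0.74), Cdh2 (-0.30), Vcam1 (-0.37), Ncam1 (-0.84) and Sdc3 (-0.36), the body of Sdc4 (-3.43) and the flanks of Ncam1 (-3.36) and Sdc4 (-2.18). Equal covered length reversed the ends of Ncam1 (-0.085), the body of Sdc3 (-0.73) and Sdc4 (-2.83) and the flanks of Ncam1 (-4.78), Sdc3 (-0.41) and Sdc4 (-2.94). Peaks joined reversed the Cdh15 ends (-0.053), and filters on −log10 q or fold reversed the Ncam1 ends (-0.085) and Cdh15 body (0.034). Flanks to 20 kb reversed Cdh15 (-0.34) and Sdc4 (-0.91), flanks to 100 kb reversed Vcam1 (0.23), and nearest bases reversed Cdh15 (-0.34) and Ncam1 (-0.45). Leaving out 1 replicate moved the Ncam1 ends from -0.27 (without ASC replicate 2) to 0.43 (without ASC replicate 1) and its flanks from -0.11 (without FISC replicate 1) to 2.56 (without FISC replicate 2). The cause of these reversals was not tested.

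Over all genes, 3419 rose and 467 fell at the ends, against 1188 and 4735 when divided by total and 1908 and 1580 at equal covered length. In the body 2794 rose and 635 fell, against 2352 and 1335 divided by total and 992 and 1598 at equal covered length. In the flanks 7351 rose and 913 fell, against 3912 and 4965 divided by total and 2698 and 3096 at equal covered length. The median difference over all genes shifted to -0.34 at the ends and -0.26 in the flanks when divided by total, and to -0.15 in the body at equal covered length. Leaving out 1 library gave at the lowest 677 genes that rose and 62 that fell at the ends.

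Same-numbered libraries did not deviate together (correlations -0.023 at the ends, 0.059 in the body, -0.12 in the flanks). With 2 libraries per condition, this cannot show whether same-numbered libraries shared an animal or a batch. With a replicate block, 2 members rose and 1 fell at the ends, 4 and 0 in the body, and 2 and 1 in the flanks. A crossed block, added after seeing the data, gave 2 and 2, 4 and 0, and 2 and 1. Without read counts, depth limits cannot be given.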
